A study of Mus musculus with 4 samples.

Results

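The 10 genes described here are 4 ligands of the interleukin-6 (IL-6) cytokine family (Il6, Il11, Lif and Clcf1), 3 of the family's receptor chains (Il6st, Lifr and Osmr) and 3 suppressors of cytokine signalling (Socs1, Socs2 and Socs3). They were chosen by symbol from 23473 gene rows of a read count table, and each symbol had 1 row. The table covers 4 RNA-seq libraries of total RNA from cells labelled MIN6, a mouse insulinoma line used as a model of the pancreatic beta cell. Control cells, given the genotype wild type in the labels, were sequenced in 2 libraries, and cells with stable overexpression of TLX in the other 2. TLX is an orphan nuclear receptor encoded by Nr2e1 that is best known as a repressor in neural stem cells. All cells were grown in DMEM with glucose and fetal calf serum, with no cytokine treatment named in the labels. The sources used here do not give whether the TLX cells are 1 clone or a pool, which promoter drives TLX or whether the controls carry an empty vector. Nothing in the labels says that replicates are separate cultures, so the p-values below measure only the spread between these libraries.

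Cytokines of the IL-6 family signal through the shared chain gp130, encoded by Il6st. IL-6 and IL-11 first bind their own alpha chains (Il6ra, Il11ra1), whereas LIF pairs gp130 with the LIF receptor (Lifr) and cardiotrophin-like cytokine, encoded by Clcf1, uses the receptor of ciliary neurotrophic factor (Cntfr) with Lifr and gp130. The oncostatin M receptor chain (Osmr) also pairs with gp130. The receptors activate JAK kinases and the transcription factor STAT3, and SOCS3 feeds back on gp130 and its JAK kinases. SOCS1 acts mainly on interferon signalling and SOCS2 on growth hormone signalling, and cytokine-induced SOCS genes are known in beta cells.

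All 4 ligand genes were lower in the TLX libraries, against 9.04% of all genes tested, while gp130 and SOCS3 transcripts differed little between the groups. Il6 entered the test only through its control counts, and a second test, DESeq2, called only Lif among the members it assessed. The stretches before the start sites of the ligand genes Il6, Il11 and Lif, which were lower together, are shown with that of Socs3, which was not called. They come from RefSeq on GRCm38.p6, which gave an entry for 8 of the 10 members. Clcf1 and Socs2, both also lower, had no entry and were not searched. The stretches are written 5′ to 3′ on the gene's strand and cover the 250 bases before the start. Capitals mark matches on either strand to an AP-1 motif (TGANTCA), the TLX recognition hexamer (AAGTCA), a STAT motif (TTCNNNGAA) or an NF-kB motif.
Il6 (chr5:30012864-30013113, plus strand): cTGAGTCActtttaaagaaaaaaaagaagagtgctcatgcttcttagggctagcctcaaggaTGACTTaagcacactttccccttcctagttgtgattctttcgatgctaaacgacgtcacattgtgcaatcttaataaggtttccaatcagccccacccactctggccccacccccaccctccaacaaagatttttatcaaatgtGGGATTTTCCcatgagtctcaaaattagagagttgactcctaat
Il11 (chr7:4778142-4778391, minus strand): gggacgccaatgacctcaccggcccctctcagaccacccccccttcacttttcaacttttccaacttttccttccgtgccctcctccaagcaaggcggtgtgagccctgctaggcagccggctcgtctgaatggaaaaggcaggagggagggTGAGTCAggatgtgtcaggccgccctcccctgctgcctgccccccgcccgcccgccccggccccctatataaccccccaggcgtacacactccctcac
Lif (chr11:4257318-4257567, plus strand): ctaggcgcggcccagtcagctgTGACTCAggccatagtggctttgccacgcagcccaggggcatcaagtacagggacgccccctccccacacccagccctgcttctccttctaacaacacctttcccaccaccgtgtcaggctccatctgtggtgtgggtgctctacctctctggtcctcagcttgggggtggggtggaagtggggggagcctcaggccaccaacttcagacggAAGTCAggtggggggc
Socs3 (chr11:117969367-117969616, minus strand): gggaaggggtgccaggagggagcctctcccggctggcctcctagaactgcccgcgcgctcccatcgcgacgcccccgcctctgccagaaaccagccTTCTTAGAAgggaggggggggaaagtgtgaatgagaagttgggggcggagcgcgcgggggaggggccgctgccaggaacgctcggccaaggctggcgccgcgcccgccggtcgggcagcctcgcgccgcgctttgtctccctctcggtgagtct

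Each of these 3 ligand windows held 1 match to the AP-1 motif, at bases -249 to -243 for Il6, -98 to -92 for Il11 and -228 to -222 for Lif, counted back from the start site. The same motif lay in 6.75% of all 32851 RefSeq windows of this length. A second Il11 start listed by RefSeq, further upstream, had no match to any motif searched. The TLX hexamer lay at -188 to -183 of Il6, on the opposite strand, and at -16 to -11 of Lif, against 13.1% of all windows. Il6 also held an NF-kB match at -44 to -35 (3.9% of all windows) and the cyclic AMP response core TGACG on the opposite strand at -135 to -131 (17.8% of all windows). Socs3 held a STAT match at -154 to -146, a motif in 7.02% of all windows. No window of Il6st, Lifr, Osmr or Socs1 matched any of these motifs, and no member window held TATAAA (12.4% of all windows). Overlaps between motifs were allowed. The motifs were chosen with earlier results of these data known, so setting these matches beside the shares of all windows is a description without a test. These matches describe letters in the reference sequence, and binding was not measured.

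Gene rows held 8136185 to 9788646 counts per library, and 11024 genes had enough counts to be tested. Nr2e1 was counted 8 and 10 times in control replicates 1 and 2 and 338 and 281 times in TLX replicates 1 and 2, as the labels say. Levels are given as CPM, the count relative to the scaled library size, and a gene with 0 counts could still stand at up to 0.302 to 0.379 CPM, depending on the library (3 counts, counting error only). Markers of the labelled beta cell were low, with 7 of 12 at 0 in every library and a sum of 18.4 to 21.7 CPM. The insulin genes Ins1 and Ins2 averaged 9.54 and 4.86 CPM over the 4 libraries. These levels go against the beta cell name in the labels, and what the cells are was not tested. The 12 mesenchymal markers summed to 6060 and 6419 CPM in control and 6752 and 6860 CPM in TLX, most of it from Col1a2 and Vim. Of these 12, 5 had too few counts to be tested (Col3a1, Thy1, Dcn, Lum and Acta2), and Lum was at 0 in every library. Of the 7 tested, 2 were higher (Col1a2, Sparc) and 2 lower (Fn1, Pdgfrb). Leukocyte markers, of interest because leukocytes make IL-6, summed to 76.9 and 85.7 CPM in control and 59.9 and 62.8 CPM in TLX. Of these 8 genes Cd68 and Lyz2 carried nearly the whole sum, and the defining genes Ptprc, Csf1r, Emr1, Cd3e and Itgam had 0 to 2 counts per library. Of 6 endothelial markers 2 were at 0 in every library and the sum was 0 to 0.302 CPM. Of 6 duct markers 4 were at 0. The duct sum, mostly Sox9, was 26.5 and 29.4 CPM in control and 13.4 and 13.9 CPM in TLX. Sox9 fell from 27.0 ± 2.4 to 10.4 ± 0.2 CPM (SD, n = 2, edgeR adjusted p = 1.57e-07). Krt7 rose from 0.95 ± 0.35 to 3.20 ± 0.11 CPM (SD, n = 2, edgeR adjusted p = 0.00151). It had 10 and 7 counts in control and 27 and 26 in TLX, and entered the test through its TLX counts. In the alpha cell list 4 of 5 genes were at 0, with Irx2 alone at 43.2 to 55.3 CPM, and in the acinar list 4 of 5 were at 0, with a sum of 0.906 to 2.31 CPM. The part of these marker differences in the results below was not tested, and fewer cells of a type cannot be told apart from less RNA per cell in such bulk samples.

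Of the 9 members with enough counts to be tested, 5 were lower with TLX, 0 were higher and 4 were not called (edgeR quasi-likelihood test, Benjamini-Hochberg adjusted p under 0.05 over all genes). Among all genes tested 16.8% were called, 9.04% as lower and 7.79% as higher. By role, 4 of 4 ligands, 0 of 2 tested receptor chains and 1 of 3 SOCS genes were lower. At an unadjusted p under 0.05 edgeR gave 5 lower and 1 higher; DESeq2 called 1 lower, Lif, and 0 higher among the 7 members it assessed, and limma-voom called 5 lower and 0 higher. Without control replicate 2, 2 members were lower and 1, Socs1, was higher, and without TLX replicate 2, 2 were lower and 0 higher. Il6 entered the test only through its control counts, and without it 4 of 8 members and 3 of 3 ligands were lower. The groups did not overlap for 7 of the 9 tested members, or 6 of 8 without Il6, against 57.1% of all genes tested. The median log2 fold change of the 9, with Il6 included, was -0.52, beside 0.00057 for all genes tested.

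**Figure D1:**
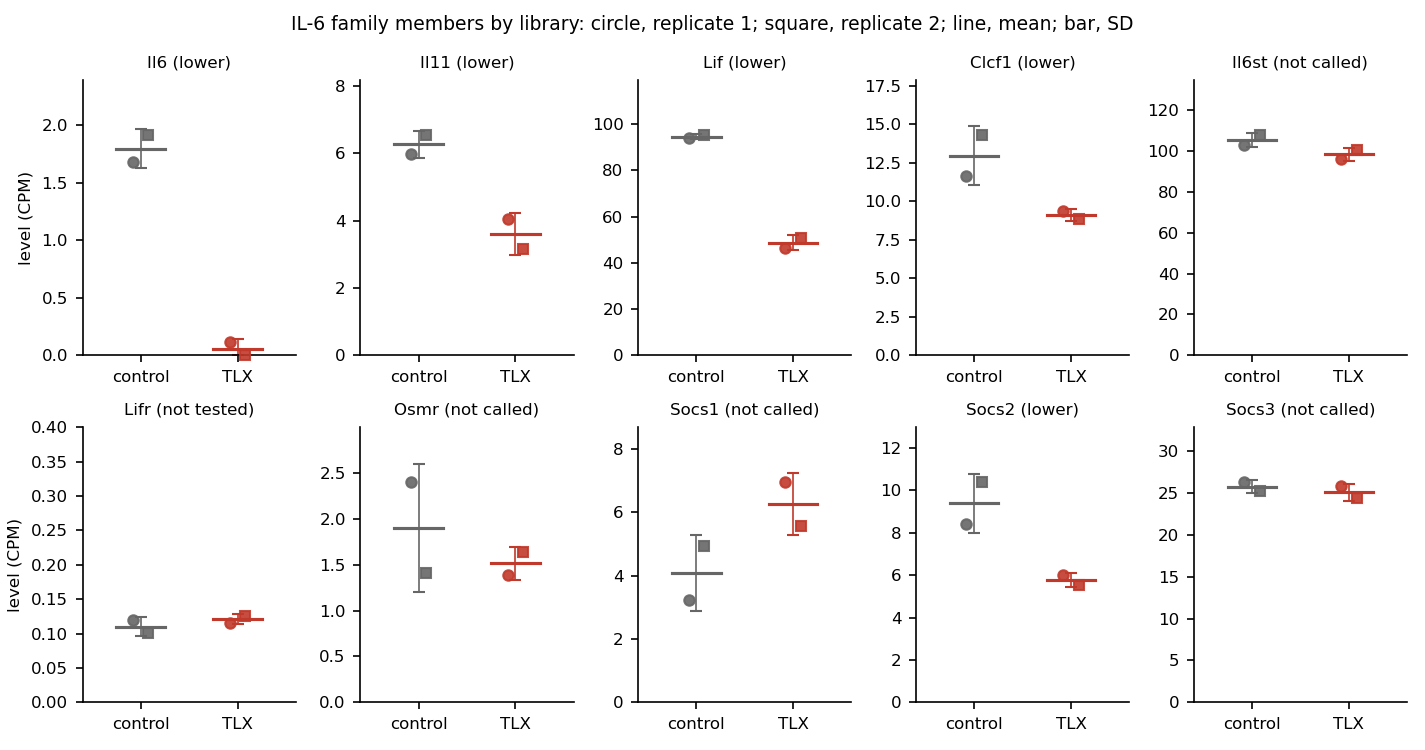
Level of each member in CPM (y axes start at 0 and differ between panels) in control (grey) and TLX (red) libraries; circles are replicate 1, squares replicate 2, lines means and bars SD (n = 2), and the words in brackets give the edgeR call. The TLX libraries lie below the control libraries for all 4 ligands and for Socs2, and the groups overlap for Socs3 and Osmr.

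Lif, which encodes leukemia inhibitory factor, was the most abundant ligand per length in control and the member with the smallest p. It was counted 783 and 946 times in control replicates 1 and 2 and 400 and 403 times in TLX replicates 1 and 2, or 93.8, 95.3, 46.3 and 50.8 CPM. Both TLX libraries stood far below both control libraries, which differed by little. The level fell from 94.5 ± 1.0 to 48.6 ± 3.2 CPM (SD, n = 2), or 1.95-fold (log2 fold change -0.96, SE 0.09, edgeR adjusted p = 4.53e-08). The call held in each of 12 alternatives, with log2 fold changes from -1.03 to -0.90. For this and the other genes, the alternatives counted do not include a fit with the replicate number as a block, which is described in the closing section.

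Il6, the founding cytokine of the family, was rare in control and nearly absent from the TLX libraries. It was counted 14 and 19 times in control replicates 1 and 2, against 1 and 0 times in TLX replicates 1 and 2. The control levels were 1.68 and 1.91 CPM and the TLX levels 0.116 and 0 CPM, below the limit that a count of 0 allows. Over the libraries of each group, 33 counts stood against 1, a control level 29.9 times the TLX level with an exact 95% counting interval of 5.01 to 1217 (counting error only; edgeR adjusted p = 0.000155). The size of the fall is thus poorly bounded. Its direction and call held in each of the 10 alternatives that gave a value, but these reuse the same few counts and so add little. DESeq2 gave no adjusted p for Il6, and a filter of 10 CPM on average left it out.

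Il11 encodes interleukin-11, a cytokine of fibroblasts and other stromal cells. It was counted 50 and 65 times in control replicates 1 and 2 and 35 and 25 times in TLX replicates 1 and 2, or 5.99, 6.55, 4.05 and 3.15 CPM. Both TLX libraries lay below both control libraries. The level fell from 6.27 ± 0.39 to 3.60 ± 0.63 CPM (SD, n = 2), with a log2 fold change of -0.79 (SE 0.23, edgeR adjusted p = 0.0179). The call was lost in DESeq2 (adjusted p = 0.222), without control replicate 2 (0.0818) and without TLX replicate 2 (0.164), over a range of 0.00499 to 0.222 in 11 alternatives, all of them with a negative value.

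Clcf1 encodes cardiotrophin-like cytokine factor 1, a secreted ligand of the family. It was counted 97 and 142 times in control replicates 1 and 2 and 81 and 70 times in TLX replicates 1 and 2, or 11.6, 14.3, 9.37 and 8.83 CPM. The control libraries differed from each other by more than the TLX libraries did, and the groups did not overlap. The level fell from 12.96 ± 1.90 to 9.10 ± 0.38 CPM (SD, n = 2), with a log2 fold change of -0.52 (SE 0.16, edgeR adjusted p = 0.0301). Without control replicate 2 the value was -0.35 (adjusted p = 0.241), and the call was also lost in DESeq2 (0.265) and without TLX replicate 1 (0.0656) or TLX replicate 2 (0.123), over a range of 0.00403 to 0.265 in 12 alternatives. In GENCODE M21, 311 bases of the Clcf1 exons belong to another gene on the same strand as well, so reads there may come from either gene.

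**Figure D2:**
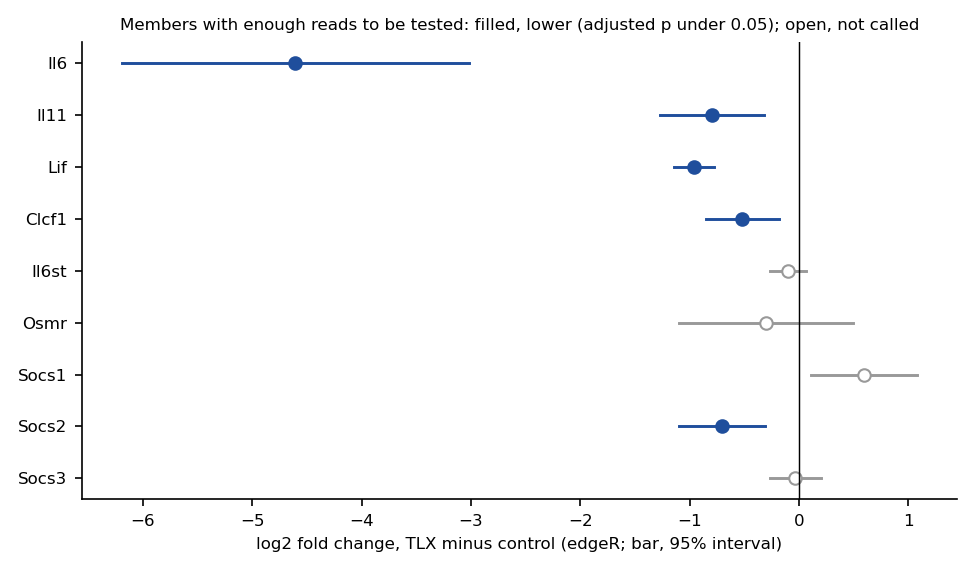
Log2 fold change (x axis, TLX minus control) of the 9 tested members with 95% intervals from the edgeR fit; filled points were lower at an adjusted p under 0.05 and open points were not called. The 4 ligands and Socs2 lie left of 0 with their whole intervals, and the intervals of Il6st, Osmr and Socs3 include 0. The interval of Socs1 lies wholly right of 0, though it was not called, as the intervals are not adjusted for the number of genes.

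The shared receptor chain did not follow the ligands. Il6st was counted 860 and 1071 times in control replicates 1 and 2 and 832 and 798 times in TLX replicates 1 and 2, or 103, 108, 96.2 and 101 CPM. The TLX libraries lay just below the control libraries. The log2 fold change was -0.10 with a 95% interval of -0.27 to 0.07 (edgeR adjusted p = 0.443), so a fall of more than 0.27 on this scale lies outside the interval. Osmr, at 20 and 14 counts in control and 12 and 13 in TLX, was too low for a narrow interval (log2 fold change -0.30, from -1.09 to 0.49; edgeR adjusted p = 0.653), its groups overlapped, and without control replicate 1 its sign turned (0.09). Lifr had 1 count in every library, at or under the limit for a count of 0, and no fold is given.

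Among the partner chains outside the 10 members, Il6ra, the IL-6 receptor alpha chain, stood at 24.5 ± 1.6 CPM and 23.5 ± 0.1 CPM in control and TLX (SD, n = 2; log2 fold change -0.05, edgeR adjusted p = 0.807). Il11ra1 had 18 and 18 counts in control and 14 and 11 in TLX, and Cntfr had 0 in every library. Of 13 other ligand and receptor genes of the family 9 had too few counts to be tested. Of the 4 tested, Ctf1, Il6ra, Il11ra1 and Il27ra, 0 were called in either direction (edgeR; 0 at an unadjusted p under 0.05, 0 in limma-voom, and 0 in DESeq2, which assessed 1). Cntfr, Il11ra1, Ctf1 and Il27ra are named here for their role, after their values were seen.

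Per length of transcript, as CPM divided by the length in kilobases (RPKM), the members ranked differently in the 2 groups. In control, Lif stood first at 23.4 ± 0.3 RPKM, above Il6st at 19.3 ± 0.6, Clcf1 at 15.8 ± 2.3 and Socs3 at 9.44 ± 0.27 RPKM (SD, n = 2), with no overlap between neighbours. Socs2, Il11 and Socs1 followed at 3.48, 3.22 and 3.05 RPKM and overlapped each other, then Il6 at 1.65, Osmr at 0.394 and Lifr at 0.0107 RPKM. In TLX, Il6st came first at 18.1 ± 0.6 RPKM, Lif at 12.0 ± 0.8 and Clcf1 at 11.1 ± 0.5 RPKM overlapped, and Socs3 stood at 9.20 ± 0.37 RPKM (SD, n = 2). Socs1 came next at 4.66 RPKM, Socs2 at 2.14 and Il11 at 1.85 RPKM overlapped, Osmr was at 0.313 RPKM, and Il6 at 0.0532 and Lifr at 0.0117 RPKM overlapped. The order of these levels is a description without a test.

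**Figure D3:**
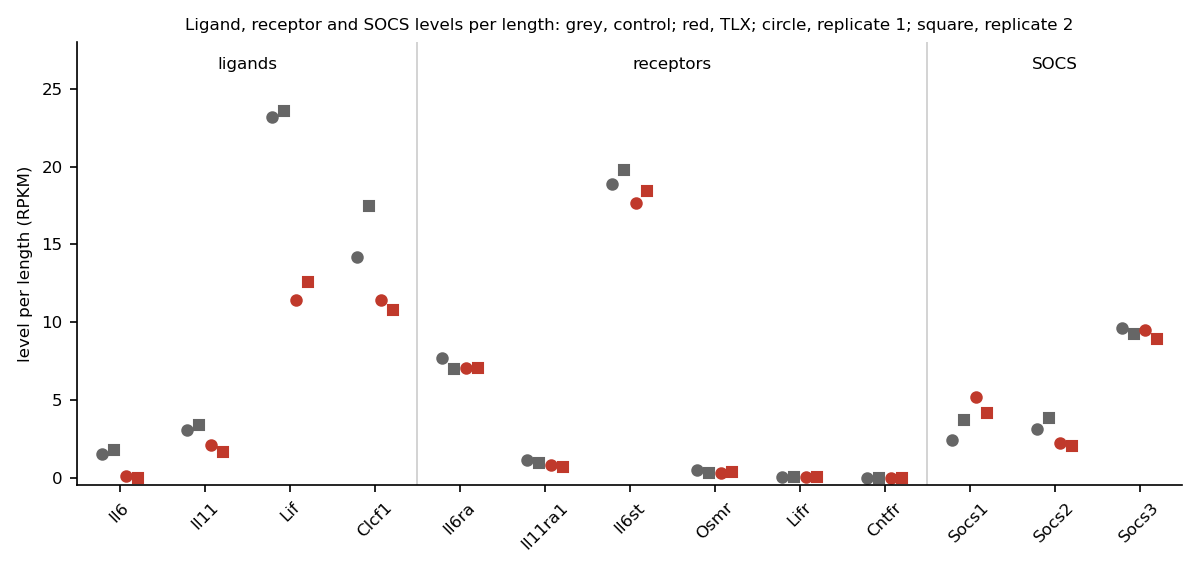
Level per length (RPKM, linear axis) in each library for the 4 ligands, 6 receptor chains and 3 SOCS genes; grey is control, red TLX, circles replicate 1 and squares replicate 2. Lif lies above Il6st in control and below it in TLX, and Lifr and Cntfr lie at or near 0 in every library.

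Of the 3 SOCS genes 1 passed the test. Socs2, which restrains growth hormone signalling, was counted 70 and 103 times in control replicates 1 and 2 and 52 and 44 times in TLX replicates 1 and 2, or 8.39, 10.4, 6.01 and 5.55 CPM. Both TLX libraries lay below both control libraries. The level fell from 9.4 ± 1.4 to 5.78 ± 0.33 CPM (SD, n = 2), with a log2 fold change of -0.70 (SE 0.19, edgeR adjusted p = 0.0125). The call was lost in DESeq2 (adjusted p = 0.174), without control replicate 2 (0.119) and without TLX replicate 2 (0.0626), over a range of 0.00171 to 0.174 in 11 alternatives, all of them with a negative value.

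Socs3, the inhibitor that gp130 signalling induces, was counted 219 and 250 times in control replicates 1 and 2 and 223 and 193 times in TLX replicates 1 and 2, or 26.2, 25.2, 25.8 and 24.4 CPM. The groups overlapped and all 4 libraries lay close together. The log2 fold change was -0.03 with a 95% interval of -0.27 to 0.20 (edgeR adjusted p = 0.884), so a change beyond about 1.2-fold in either direction lies outside the interval. Its sign turned without TLX replicate 2 (0.0066).

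Socs1, an inhibitor of interferon and other JAK signalling, was counted 27 and 49 times in control replicates 1 and 2 and 60 and 44 times in TLX replicates 1 and 2, or 3.23, 4.93, 6.94 and 5.55 CPM. Both TLX libraries lay above both control libraries, but the libraries of each group were far apart. The log2 fold change was 0.59 with an SE of 0.24 and did not pass (edgeR adjusted p = 0.0878). It passed without the filter on low counts (0.0499) and without control replicate 2 (log2 fold change 0.95, adjusted p = 0.0192), over a range of 0.0192 to 0.447 in 11 alternatives.

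The tested genes whose profile over the 4 libraries lay nearest to that of Lif were Mmp19, a matrix metalloproteinase, Havcr2, the immune receptor Tim-3, and Ptpn7, a tyrosine phosphatase. Their log2 CPM, centred on the control mean, differed from that of Lif by a root mean square of 0.012, 0.031 and 0.039. Mmp19 went from 29.44 ± 0.04 to 15.1 ± 1.2 CPM, Havcr2 from 13.4 ± 0.3 to 6.90 ± 0.60 CPM and Ptpn7 from 9.08 ± 0.03 to 4.66 ± 0.54 CPM (SD, n = 2). All profiles share the same 4 libraries, so this likeness is a description.

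Components that carry the signal from the receptors were tested in 20 of 22 genes of a JAK-STAT list. Of these 3 were higher, 0 were lower and 17 were not called (edgeR; 1 lower at an unadjusted p under 0.05, and 0 lower in DESeq2 and limma-voom), with a median log2 fold change of 0.07. The called share, 15.0%, was near the 16.8% of all genes tested. Stat2, a transcription factor of interferon responses, rose from 95.9 ± 2.6 to 132.0 ± 0.6 CPM (SD, n = 2; log2 fold change 0.46, edgeR adjusted p = 0.00023). Pias3, named as a protein inhibitor of activated STAT3, rose from 35.2 ± 3.4 to 49.1 ± 3.9 CPM (log2 fold change 0.47, edgeR adjusted p = 0.00204; 0.0553 without TLX replicate 1, and 1.4e-05 to 0.0553 over 12 alternatives). Stat3 itself, which gp130 activates, had 1095 and 1272 counts in control and 1191 and 1040 in TLX and was not called (log2 fold change 0.05, SE 0.08, edgeR adjusted p = 0.698), and Jak1, the main kinase of gp130, was not called either (0.23, SE 0.09, adjusted p = 0.0668). Ptpn11, the phosphatase SHP2 that binds gp130, had the highest level per length of the list, at 67.3 RPKM over the 4 libraries, and a log2 fold change of 0.07. Stat3 and Jak1 are named for their role, after their values were seen.

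Of 24 genes described as STAT3 targets 18 were tested; 9 were lower, 0 were higher and 9 were not called, with a median log2 fold change of -0.29, beside the 9.04% of all genes that were lower. At an unadjusted p under 0.05 edgeR gave 11 lower and 1 higher; DESeq2 called 7 lower and 0 higher, and limma-voom 9 and 0. Without control replicate 1 there was 1 higher. Like the other lists, this one was drawn up with earlier results of these data known, so its share beside that of all genes is a description. Several of these genes also answer to NF-kB and other inflammatory signals, so the list is not specific for STAT3, and Stat3 protein activity was not measured.

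Hp, which encodes the acute-phase protein haptoglobin, was counted 46 and 63 times in control and 20 and 11 times in TLX and fell by 1.66 on the log2 scale (SE 0.28, edgeR adjusted p = 0.000157). Saa3, an acute-phase serum amyloid, fell from 57.8 ± 5.2 to 34.4 ± 1.2 CPM, and Lcn2, the iron-binding lipocalin 2, from 337 ± 31 to 218 ± 6 CPM (SD, n = 2; edgeR adjusted p of 1e-05 and 5.51e-06). Cebpd, a transcription factor of the acute-phase response, fell from 86.0 ± 3.2 to 54.2 ± 0.8 CPM, and Junb, an AP-1 subunit, from 258.6 ± 2.7 to 183.6 ± 1.0 CPM (SD, n = 2; edgeR adjusted p of 7.56e-06 and 5.27e-05). Tnfrsf12a, the receptor of the cytokine TWEAK, had the highest level per length of the list and fell from 832 ± 56 to 532 ± 6 CPM (SD, n = 2; edgeR adjusted p = 4.63e-06). All 6 of these genes passed in each alternative that gave a value for them.

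Regulators of the Il6 transcript moved in both directions. Of 10 tested, 4 were lower, 2 were higher and 4 were not called, with a median log2 fold change of -0.04, beside the 9.04% lower and 7.79% higher among all genes tested. Arid5a, which encodes an RNA-binding protein that stabilises the Il6 transcript, was counted 973 and 1074 times in control replicates 1 and 2 and 401 and 364 times in TLX replicates 1 and 2. Both TLX libraries stood far below both control libraries. Its level fell from 112.4 ± 5.9 to 46.1 ± 0.3 CPM (SD, n = 2), with a log2 fold change of -1.28 (SE 0.09, edgeR adjusted p = 5.4e-10), and the call held in 12 of 12 alternatives.

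Nfkbiz, which encodes a nuclear cofactor of NF-kB at the Il6 gene, fell from 67.7 ± 2.2 to 47.1 ± 2.8 CPM (SD, n = 2; edgeR adjusted p = 0.000229). Zfp36, which encodes tristetraprolin, a protein that speeds the decay of cytokine transcripts, fell from 33.1 ± 3.3 to 22.3 ± 0.8 CPM (SD, n = 2; edgeR adjusted p = 0.00131). So genes for a stabilising and for a destabilising protein were both lower. Its relative Zfp36l1 fell by 0.42 on the log2 scale (edgeR adjusted p = 0.0156), a call lost in DESeq2 (0.136), without control replicate 2 (log2 fold change -0.23, 0.21) and without TLX replicate 1 (0.106), over a range of 1.59e-05 to 0.21. Rc3h1, which encodes the decay factor Roquin-1, and Ddx5, an RNA helicase and the gene of highest level per length in the list, had log2 fold changes of 0.30 and 0.29 (edgeR adjusted p of 0.0252 and 0.0131). Without control replicate 1, TLX replicate 1 or TLX replicate 2, 0 genes of the list were called higher, with adjusted p of 0.115 to 0.168 for Rc3h1 and 0.056 to 0.239 for Ddx5; Rc3h1 was not called in DESeq2 either (0.167). Over 12 alternatives the adjusted p ranged from 0.00298 to 0.168 and from 0.00029 to 0.239. Zc3h12a, which encodes the nuclease Regnase-1 and is named for its role after its values were seen, was not called (log2 fold change -0.13, SE 0.10, edgeR adjusted p = 0.404).

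**Figure D4:**
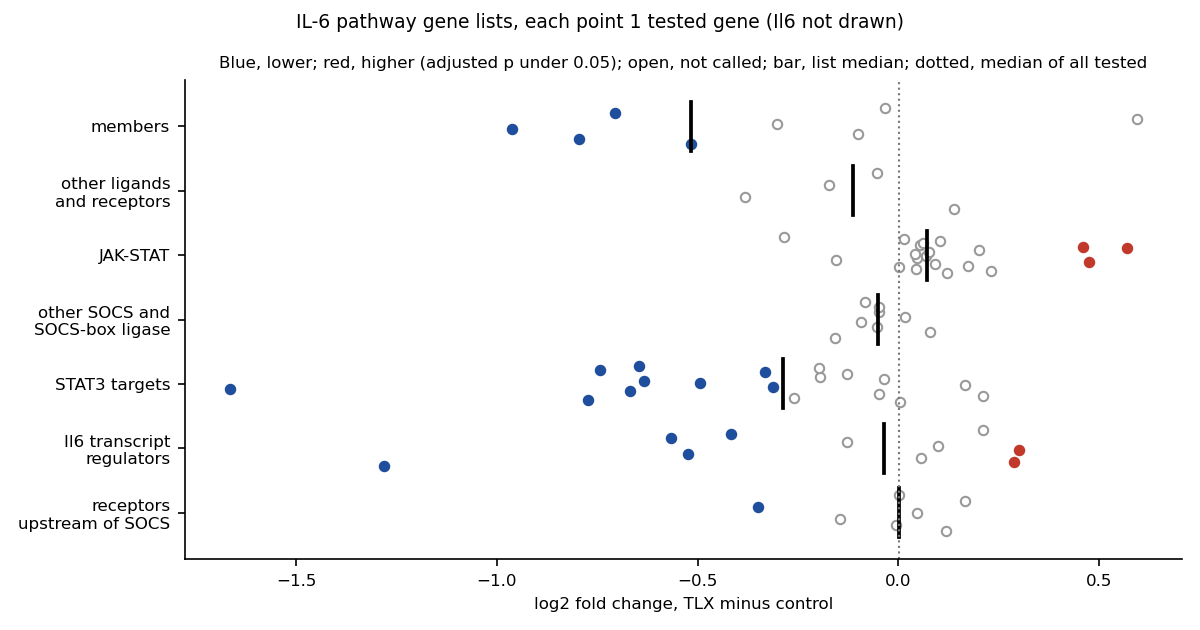
Log2 fold change (x axis, TLX minus control) of each tested gene in the member list and 6 pathway lists; blue is lower and red higher at an adjusted p under 0.05, open points were not called, black bars are list medians and the dotted line is the median of all genes tested. Il6 is not drawn because of its few counts but enters the member median; the STAT3 target list holds 9 blue, 0 red and 9 open points, and the JAK-STAT list holds 3 red and 0 blue points.

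Other SOCS family genes and subunits of the ubiquitin ligase that SOCS proteins recruit showed 0 calls among 8 tested of 9 (edgeR; 0 at an unadjusted p under 0.05, 0 in DESeq2 and 0 in limma-voom), with a median log2 fold change of -0.05. Tceb2, which encodes elongin B, had the highest level per length of these, at 349.5 RPKM over the 4 libraries. Cish, a SOCS family gene induced by growth hormone and prolactin, had 1 and 1 counts in control and 0 and 0 in TLX, and is named after its values were seen. Of 10 receptors for growth hormone, prolactin, interferons and related ligands, 7 were tested, 1 was lower and 0 were higher (edgeR; 0 higher at an unadjusted p under 0.05, in DESeq2 and in limma-voom), with a median log2 fold change of 0.00097. That is 14.3% of the 7 called, near the 16.8% of all genes tested. The lower gene was Ifngr2, a chain of the interferon gamma receptor and the gene of highest level per length (log2 fold change -0.35, edgeR adjusted p = 0.0253), whose call was lost in DESeq2 (0.212) and without control replicate 2 (0.113), TLX replicate 1 (0.147) or TLX replicate 2 (0.124), over a range of 0.00441 to 0.212.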

How the data were processed

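The authors deposited 1 table of raw read counts per feature and library, with a length for each feature, per the file headers. TopHat2 2.0.13 and build mm9 were used, per the submitters' processing notes. The counting program, annotation, strand use and handling of reads with several matches are points that the sources used here do not give. Of 56826 rows, 33353 are cDNA clone rows, which held 23.3% to 25.1% of each library's counts and were left out because some repeat counts of gene rows. Totals of gene rows ran from 8136185 to 9788646.

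After filterByExpr (minimum count 10) and TMM scaling, TLX was set against control in 11024 genes by the quasi-likelihood test of edgeR 4.0.16 (R 4.3.3; 2 residual degrees of freedom), and p-values were adjusted by Benjamini-Hochberg at 0.05. CPM and RPKM use TMM-scaled sizes and the deposited lengths. The SE is the log2 fold change over the square root of F. The edgeR tests and intervals also borrow dispersion from other genes, so they rest on more than these 2 degrees of freedom. The test was checked on counts simulated with the same dispersion for every gene, so the check does not cover dispersion that differs between genes. The median chi-square per gene was 1.13 between control libraries and 0.923 between TLX libraries, against 0.455 for sampling noise, so no library was taken for a repeat of another. Alternatives were DESeq2 1.42.0 (size factors; Wald test), limma-voom (limma 3.58.1), total counts, 2 other filters, all feature rows, no Rn45s and Lars2, a replicate block and leaving out each library. Counts and ranges of alternatives given for single genes leave out the block, since the replicate numbers are not known to pair the libraries. The members, lists and motifs were chosen with earlier results of these data known. Named genes are the members, Nr2e1, up to 6 called genes of smallest p and the gene of highest level per length in each list, cell type markers and the 3 nearest profiles to Lif; others are said to be chosen after their values were seen. The lists hold genes of each role by general knowledge, with no set test. Some genes counted in the lists are not reported here by name.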

Additional observations from a re-analysis of the deposited data

How the results depend on the processing

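Log2 fold changes kept their sign in every alternative for 7 of the 9 tested members; Osmr ran from -0.663 to 0.0947 and Socs3 from -0.0775 to 0.0066 when each replicate was left out, turning positive without control replicate 1 and TLX replicate 2 respectively, with neither of them called. With DESeq2's test 355 genes were higher and 484 lower among all genes, and 1 member was lower. Leaving out each replicate in turn gave 388 to 993 genes higher and 585 to 1060 lower among all genes, 0 to 1 members higher and 2 to 5 lower, and 2 to 6 genes of the pathway lists higher and 10 to 13 lower, against 5 and 14 with all libraries. Members lower numbered 2 without control replicate 2 and 2 without TLX replicate 2. A filter of 10 CPM on average left 4 members, of which 2 were lower. Without a filter on low counts 1 member, Socs1, was higher. With the replicate number as a block 1495 genes were higher and 1487 lower among all genes. In that fit 1 member, Socs1 (edgeR adjusted p = 0.0342), was higher and 5 were lower. Of the pathway lists 9 genes were higher and 15 lower. The deviations of same-numbered libraries correlated by 0.108 across 11024 genes. With 2 replicates this 1 value cannot decide whether the shared numbers pair the libraries. The cause of these differences was not tested. Depth limits Il6, Osmr and Lifr most, whose counts stayed at 20 or below in every library.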
